A study of Mus musculus with 50 samples.

Results

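The tumours compared here were the 15 with the highest and the 15 with the lowest expression of 6 stromal matrix genes, out of 50 mammary tumours profiled on Affymetrix gene expression arrays. All 50 arose spontaneously in female MMTV-Erbb2 mice. Their transgene places ErbB2, a receptor tyrosine kinase, under a mouse mammary tumour virus promoter that is active in mammary epithelium. The mice were a backcross, C57BL/6J by FVB/NJ hybrids mated to FVB/NJ MMTV-Erbb2 animals, so they differ in the genome segments they inherited. Each array holds RNA from 1 biopsy taken before drug treatment, named docetaxel in the sample labels and doxorubicin in the series title. Both groups share the transgene, the cross, the sex and the time of sampling. The labels put all tumours in 1 group, give no age, and do not say whether any of them came from the same mouse.

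The groups were chosen by measured values. The arrays of mid60, mid79 and mid100 were left out, which left 47 tumours. Dcn, Dpt, Col1a1, Col3a1, Lum and Postn were each standardised over these 47 and averaged into a matrix score in SD units. The 15 matrix-rich tumours had scores between 2.28 in mid9 and 0.601 in mid127, and the 15 matrix-poor tumours between -0.446 in mid182 and -1.67 in mid115. Just outside the groups lay mid85 at 0.421 and mid42 at -0.357, and 17 tumours lay between the groups. The widest step between neighbouring scores lay between mid9 and the next tumour, not at the edge of either group, so the groups are the ends of a range.

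**Figure D1:**
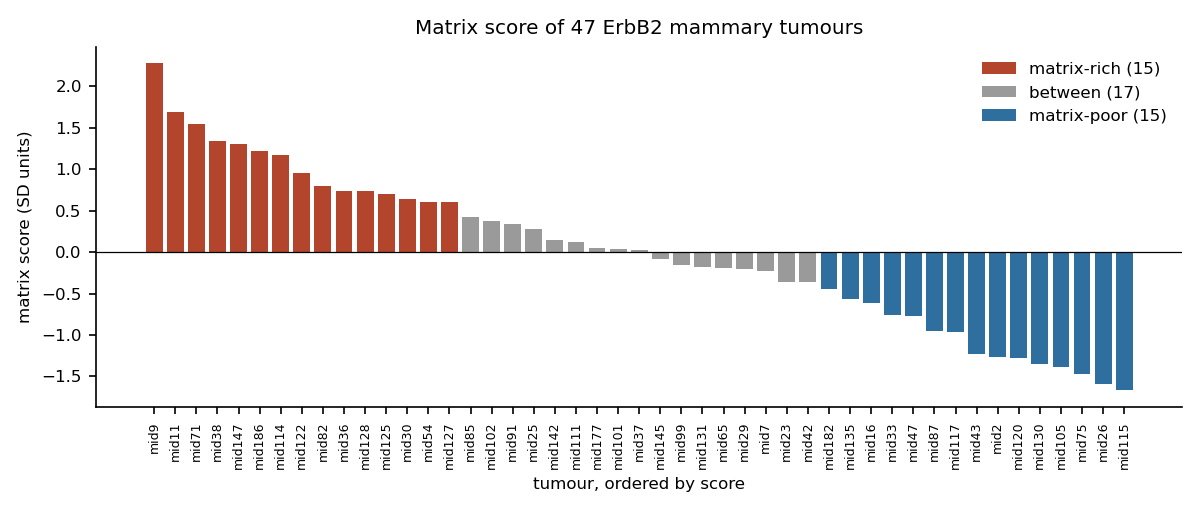
Matrix score (vertical axis, SD units) of the 47 tumours ordered by score, with 1 bar per tumour. The 15 matrix-rich tumours stand left, from 2.28 to 0.601, the 17 tumours between the groups in grey, and the 15 matrix-poor tumours right, from -0.446 to -1.67.

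A carcinoma biopsy holds tumour cells and stroma. Fibroblasts lay down fibrillar collagens, which small leucine-rich proteoglycans such as decorin and lumican bind and space, and lysyl oxidases crosslink the fibres. Epithelial cells are joined by cadherins, claudins and desmosomes and carry keratins, which stromal cells lack. Because RNA came from whole biopsies, fewer cells of a type and less RNA per cell cannot be told apart in any value below.

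The 6 genes of the score are a description of the choice and were not tested. Decorin (Dcn), the collagen-binding proteoglycan, ranged from 8.81 to 10.78 log2 with a median of 9.71 in matrix-rich tumours, and from 3.88 to 7.09 with a median of 5.69 in matrix-poor tumours. The means lay 4.16 log2 apart, or 17.8-fold. Dermatopontin (Dpt), which binds decorin and collagen, had means of 8.48 ± 0.80 and 5.07 ± 0.47 (SD, n = 15 matrix-rich and 15 matrix-poor tumours). The means of lumican (Lum), a keratan sulphate proteoglycan, were 7.01 ± 0.79 and 4.22 ± 0.44, those of type III collagen (Col3a1) 9.71 ± 0.72 and 7.05 ± 0.39, those of type I collagen (Col1a1) 10.44 ± 0.64 and 8.15 ± 0.61, and those of periostin (Postn), a matrix glycoprotein of activated fibroblasts, 10.31 ± 0.64 and 7.89 ± 0.77, in the same order. The groups did not overlap in any of the 6 genes. Over the 47 tumours their pairwise correlations lay between 0.769 and 0.955, as values that share the same arrays.

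Across 16629 other genes, the difference ran largely one way. In matrix-rich tumours 788 genes (4.74%) were higher and 97 (0.583%) were lower than in matrix-poor tumours at an adjusted p under 0.05 (limma, Benjamini-Hochberg over all tested genes), and 2770 genes had an unadjusted p under that level. The median difference over all tested genes was -0.02 log2. Among the higher genes 137 differed at least 2-fold and 26 at least 4-fold, with a median difference of 0.58 log2. Among the lower genes 0 differed 2-fold. Their median difference was -0.20 log2, the largest was 1.32-fold, and 68 of the 97 had a mean under 6 log2, where signal is dim. In 89 genes (0.535%) every matrix-rich tumour lay above every matrix-poor tumour, and in 0 genes below.

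The 17 tumours between the groups entered neither the groups nor the test. Their mean lay between the 2 group means in 776 of the 788 higher genes (98.5%) and in 93 of the 97 lower genes (95.9%). Over all tested genes the share was 48.7%. The score itself placed these tumours between the groups, and the genes were called for differing between its ends. The order of the means is therefore a description and not independent evidence. Among matrix-rich tumours mid9 had the highest value in 517 of the 788 higher genes (65.6%), against 9.67% of all tested genes. Without mid9 there were 722 higher and 75 lower genes. With the level of pan-epithelial genes as a covariate 368 genes were higher, and with the level of macrophage genes 127. The count of lower genes moved between 5 and 262 over the alternative settings.

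Among epithelial genes the pan-epithelial list, of genes that epithelial cells of any kind express, held no call, while 7 of 16 members of the basal and myoepithelial list were higher. The pan-epithelial list had 34 tested members, of which 0 were called by limma or by the Wilcoxon rank-sum test and 11 had an unadjusted p under 0.05. Only 0.583% of all tested genes were lower, so 0 lower calls among 34 genes was near that background. The difference was below 0 in 31 of the 34, with a median of -0.13 log2 (1.09-fold lower in matrix-rich tumours), beside -0.02 over all tested genes. In 33 of the 34 the 95% interval lay above -1 log2, a 2-fold lower level. The mean level of the list ranged from 8.28 to 8.80 log2 with a median of 8.54 in matrix-rich tumours, and from 8.48 to 8.88 with a median of 8.67 in matrix-poor tumours, so the groups overlapped over most of their range. The lowest matrix-rich value was that of mid9. The mean of the 17 tumours between the groups lay between the group means in 17 of the 34 genes and above both in 15.

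Epcam, the epithelial adhesion molecule, ranged from 10.94 to 11.71 log2 with a median of 11.49 in matrix-rich tumours, and from 11.35 to 11.74 with a median of 11.52 in matrix-poor tumours. The groups overlapped apart from 3 matrix-rich tumours, mid54, mid9 and mid38, that lay below every matrix-poor one. The difference was -0.08 log2 (95% interval -0.20 to 0.04, adjusted p = 0.536 by limma). E-cadherin (Cdh1), which joins epithelial cells, had means of 10.24 ± 0.27 and 10.34 ± 0.25 log2 (SD, n = 15 matrix-rich and 15 matrix-poor tumours), with a difference between -0.29 and 0.09 log2.

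The paired keratins of luminal cells had intervals below 0 without passing the test. Krt18 ranged from 10.08 to 11.32 log2 with a median of 10.72 in matrix-rich tumours, and from 10.34 to 11.47 with a median of 11.02 in matrix-poor tumours. It was under the matrix-poor median in 13 of 15 matrix-rich tumours, with a difference of -0.27 log2 (interval -0.48 to -0.06, adjusted p = 0.148). Its partner Krt8 differed by -0.18 log2 (interval -0.33 to -0.04, adjusted p = 0.167). Claudin 3 (Cldn3), a tight junction protein, had the smallest adjusted p of the list, 0.0600 by limma, and ranged from 9.54 to 10.63 log2 with a median of 10.28 in matrix-rich tumours, and from 10.20 to 10.96 with a median of 10.58 in matrix-poor tumours. The polarity gene Llgl2 differed by -0.22 log2 (interval -0.37 to -0.07, adjusted p = 0.0872). These 4 genes shared a direction and none passed the test.

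A few epithelial genes varied far more inside each group than between them. Desmoplakin (Dsp), which anchors keratin to desmosomes, ranged from 5.42 in mid147 to 10.19 log2 with a median of 9.24 in matrix-rich tumours, and from 7.17 to 10.14 with a median of 9.13 in matrix-poor tumours. Its difference of -0.51 log2 had an interval from -1.37 to 0.35. The mucin Muc1 ranged from 6.20 to 10.34 log2 in matrix-rich tumours and from 6.63 to 9.84 in matrix-poor tumours. Claudin 4 (Cldn4) ranged from 6.13 to 9.66 log2 in matrix-rich tumours and from 7.11 to 10.58 in matrix-poor tumours. For these 3 genes the SD within matrix-rich tumours was above 0.8 log2, and the data bound a difference less tightly than for Epcam.

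**Figure D2:**
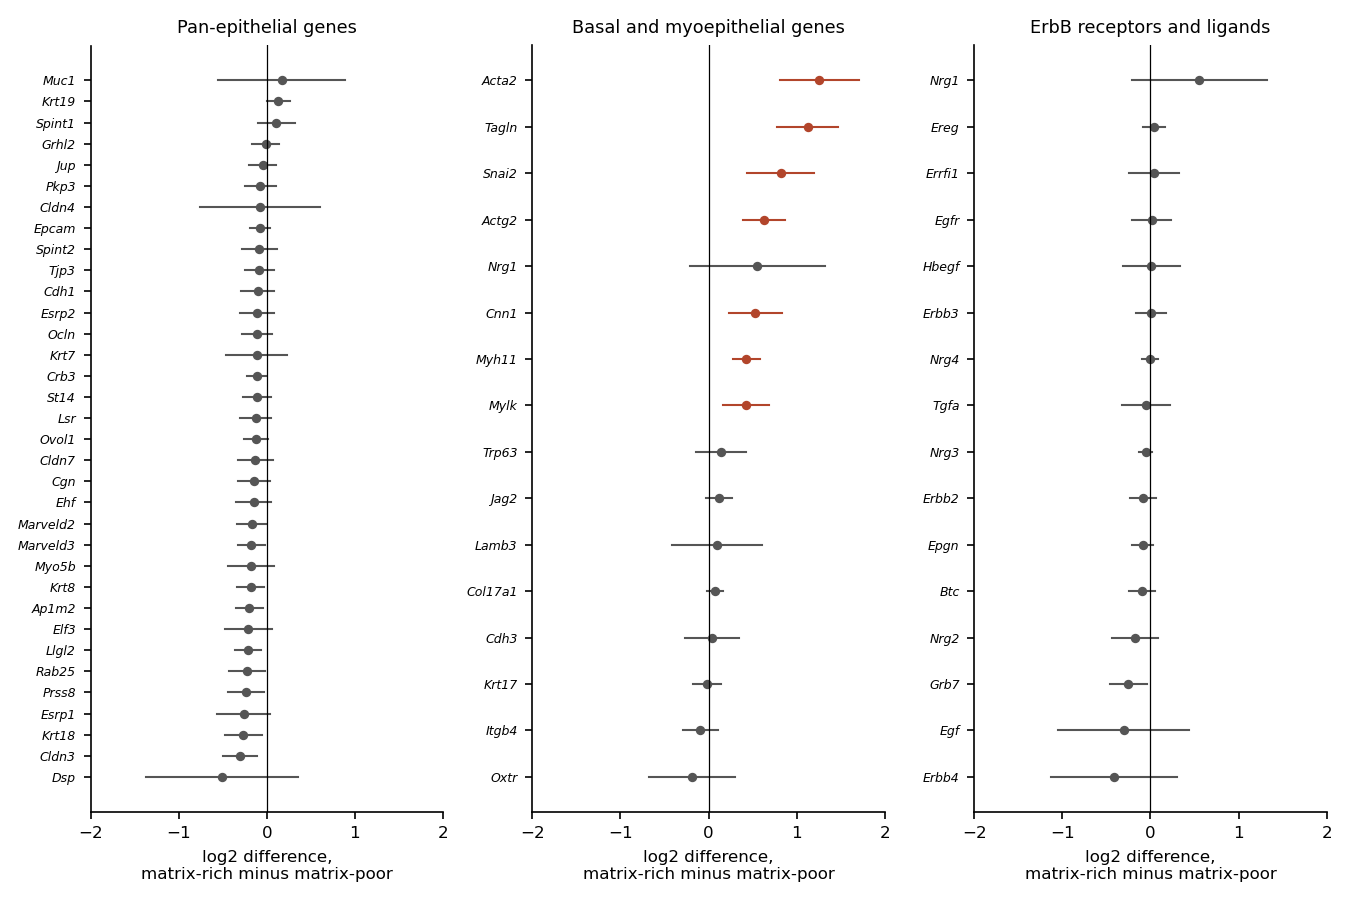
Log2 difference, matrix-rich minus matrix-poor tumours (horizontal axis), of every tested pan-epithelial, basal and myoepithelial, and ErbB family gene, with its 95% interval as a line. Called genes are red. All 34 pan-epithelial and all 16 ErbB family genes are grey, while 7 of the 16 basal and myoepithelial genes, led by Acta2 at 1.25, are red.

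The driver receptor did not separate the groups. Erbb2 ranged from 11.10 to 11.92 log2 with a median of 11.74 in matrix-rich tumours, and from 11.50 to 11.92 with a median of 11.74 in matrix-poor tumours. The difference was -0.08 log2 (interval -0.24 to 0.07, adjusted p = 0.623 by limma). Its lowest values, 11.10 in mid186, 11.16 in mid114 and 11.33 in mid9, were all in matrix-rich tumours. The sources used here do not state which Erbb2 transcript, transgenic or endogenous, its probe set detects. Erbb3, the kinase-impaired partner, had means of 10.70 ± 0.24 and 10.70 ± 0.23 log2 (SD, n = 15 matrix-rich and 15 matrix-poor tumours), with an interval of the difference from -0.17 to 0.18. Egfr had an interval from -0.21 to 0.24.

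Among all 16 tested receptors, ligands and regulators of the ErbB family 0 were called by limma or the rank-sum test and 1 had an unadjusted p under 0.05, with a median difference of -0.05 log2. With 4.74% of all tested genes higher and 0.583% lower, 0 calls among 16 genes was near the background. Erbb4, the fourth receptor, ranged from 4.75 in mid9 and 4.83 in mid11 to 8.71 log2 in matrix-rich tumours, and from 6.03 to 8.72 in matrix-poor tumours. Its difference was -0.42 log2, with an interval from -1.13 to 0.30. The ligand neuregulin 1 (Nrg1) ranged from 5.60 to 9.45 log2 with its maximum in mid54 in matrix-rich tumours, and from 4.93 to 8.28 in matrix-poor tumours, a difference of 0.55 log2 with an interval from -0.21 to 1.32.

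Mien1, which lies beside Erbb2 on mouse chromosome 11, was among the 10 genes with the largest lower difference. It ranged from 8.49 to 9.57 log2 with a median of 9.03 in matrix-rich tumours, and from 9.04 to 9.98 with a median of 9.32 in matrix-poor tumours, and was lower by 1.25-fold (adjusted p = 0.0287). The groups overlapped, and the call was lost under 8 of 19 alternative settings. No other tested gene of the 9 around and including Erbb2 was called. Among them Grb7, an adaptor that binds ErbB2, differed by -0.25 log2 (interval -0.46 to -0.04, adjusted p = 0.195).

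Of the 97 lower genes 3 (3.09%), Ndufb8, Foxd3 and Wnt6, were in the 35 gene lists, which hold 3.56% of all tested genes, so the share was close to that background. The transcript AI463170 had the largest lower difference, -0.40 log2, and ranged from 6.66 to 7.38 log2 in matrix-rich tumours and from 7.01 to 8.05 in matrix-poor tumours. Rab17, a small GTPase of polarised epithelial cells, ranged from 6.08 to 7.21 log2 with a median of 6.66 in matrix-rich tumours, and from 6.50 to 7.49 with a median of 7.06 in matrix-poor tumours (difference -0.38, adjusted p = 0.0156 by limma). The groups overlapped, with 13 of 15 matrix-rich tumours under the matrix-poor median. Phlda1, a pleckstrin homology domain protein, was lower by 1.27-fold and Gfus, which makes GDP-fucose, by 1.24-fold. Ndufb8, a subunit of respiratory complex I, was lower by 1.24-fold (adjusted p = 0.00628). The remaining members of the 10 were Zfp454, the pseudogene Rps4l-ps, whose signal may be shared with copies of the ribosomal gene, the RNA-binding protein gene Lsm5 and Mir92b, between -0.35 and -0.28 log2.

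Of 220 tested microRNA genes 1, Mir92b, was lower, and 2, Mir453 and Mir5124a, were higher, by 0.46 and 0.38 log2. Among all tested genes 0.583% were lower and 4.74% higher, so the lower count was near the background and the higher count below it. The mean of Mir5124a was 4.62 log2 in matrix-rich tumours, 4.39 in those between and 4.24 in matrix-poor tumours. Without the matrix-rich tumours its mean lay under the filter of 4.38 log2. Mir5124a therefore passed the filter only through the group where it is high. MicroRNAs pair with target transcripts mainly through the seed, bases 2 to 8, given below in capitals. The sequences of both arms of Mir92b are shown because it was called, and those of the miR-200 family, chosen after their values were seen, because these microRNAs are known to be made in epithelial cells and to repress Zeb1.
mmu-miR-92b-3p: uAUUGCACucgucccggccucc
mmu-miR-92b-5p: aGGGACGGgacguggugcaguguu
mmu-miR-200a-3p: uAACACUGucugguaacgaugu
mmu-miR-200b-3p: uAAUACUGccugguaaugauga
mmu-miR-200c-3p: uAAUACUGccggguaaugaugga
The sequences are RefSeq's on the mouse build GRCm38.p6. Mir92b lies on chromosome 3, its 3p arm at chr3:89227126-89227147 on the minus strand. In these sequences miR-200b-3p and miR-200c-3p share a seed, and that of miR-200a-3p is another. The array reads RNA of the microRNA genes or transcripts across them, not the mature strands.

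The Mir92b signal ranged from 6.25 to 6.83 log2 with a median of 6.50 in matrix-rich tumours, and from 6.52 to 7.41 with a median of 6.71 in matrix-poor tumours. The groups overlapped, with 12 of 15 matrix-rich tumours under the matrix-poor median and a difference of -0.29 log2 (interval -0.45 to -0.13, adjusted p = 0.0231 by limma). Mir200a and Mir200b differed by -0.20 log2 (interval -0.54 to 0.13) and -0.30 log2 (interval -0.76 to 0.16), and Mir200c by -0.09 log2 (interval -0.32 to 0.14), and none of the 3 was called.

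Among basal and myoepithelial genes 7 of 16 tested members were higher and 0 lower, beside 4.74% higher over all tested genes, with a median of 0.28 log2. The 7 were the contractile genes Acta2, Tagln, Actg2, Cnn1, Myh11 and Mylk, and Snai2, a repressor of E-cadherin. Smooth muscle actin (Acta2) ranged from 8.84 to 11.46 log2 with a median of 9.67 in matrix-rich tumours, and from 7.90 to 9.96 with a median of 8.34 in matrix-poor tumours, and was higher by 2.39-fold (adjusted p = 0.000209). Transgelin (Tagln), an actin-binding protein, ranged from 6.98 to 9.36 log2 in matrix-rich tumours and from 5.82 to 7.05 in matrix-poor tumours, with 14 of 15 matrix-rich tumours above all matrix-poor ones. Snai2 was higher by 1.76-fold (adjusted p = 0.00435) and reached 7.56 log2 in mid9.

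The 9 other tested members of that list, among them genes that mark basal epithelium without contraction, were not called. Their differences ran from -0.19 log2 for Oxtr to 0.55 for Nrg1. Snai2, called above, is not a contractile gene either. Trp63, the transcription factor of basal cells, differed by 0.14 log2 (interval -0.14 to 0.43), the keratin Krt17 by -0.02 (interval -0.17 to 0.14) and the hemidesmosome integrin Itgb4 by -0.09 (interval -0.29 to 0.11), and none was called. In Trp63 the tumour mid54, at 6.60 log2, lay above the other tumours of both groups. Acta2, Cnn1, Myh11 and Tagln also stand in the list of pericyte and smooth muscle genes, where 8 of 14 members were higher and 0 lower (median 0.48). Which cells the contractile genes came from was not tested. With the macrophage level as a covariate 0 of the 16 basal and 0 of the 14 pericyte genes were called by limma, and with the pan-epithelial level 4 of the 16. The keratin Krt14 lay below the filter on low values and Krt5 had no probe set of its own gene.

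Mesenchymal genes that carcinoma cells can also switch on were higher in 9 of 13 tested members and lower in 0, with a median of 0.63 log2. The share of all tested genes that were higher was 4.74%. Fibronectin (Fn1), the fibril-forming glycoprotein, ranged from 10.13 to 12.22 log2 with a median of 10.73 in matrix-rich tumours, and from 6.56 to 9.15 with a median of 7.90 in matrix-poor tumours. The groups did not overlap, and Fn1 was higher by 7.61-fold (adjusted p = 7.31e-10 by limma). Fn1 is itself a matrix gene, also in the list of proteoglycans and glycoproteins. Matrix genes chose the groups, so its p-value and lack of overlap are not independent evidence. Cadherin 11 (Cdh11), a cadherin of fibroblasts, was higher by 2.85-fold and Prrx1, a transcription factor of limb and connective tissue mesenchyme, by 1.85-fold. Zeb1, Vim, S100a4, Twist1, Itga5 and Snai2 were the other called members, and the difference of Snai1 was 0.05 log2 (adjusted p = 0.763). Prrx1 and S100a4 are also in the list of fibroblast genes, and the cells these transcripts came from were not tested. The macrophage covariate left 2 of the 13 called.

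Other programmes of tumour cells gave 1 call, a lower one, where 4.74% of all tested genes were higher and 0.583% lower. In 32 cell cycle genes limma and the rank-sum test called 0, and 0 had an unadjusted p under 0.05. Their median was -0.15 log2, and their mean level ranged from 7.01 to 8.21 log2 in matrix-rich tumours and from 6.99 to 8.72 in matrix-poor tumours. Mki67, the proliferation antigen, had means of 9.93 ± 0.45 and 10.09 ± 0.47 log2 (SD, n = 15 matrix-rich and 15 matrix-poor tumours), with an interval of the difference from -0.49 to 0.17. In 21 genes of the respiratory chain 1, Ndufb8, was lower by limma and 2 by the rank-sum test, 7 had an unadjusted p under 0.05 and 18 had a difference below 0 (median -0.13). The 16 genes of cholesterol and fatty acid synthesis all had a difference below 0, with a median of -0.18 log2, 3 with an unadjusted p under 0.05 and 0 called by either test. With the macrophage level as a covariate the medians were 0.13 log2 for the cell cycle, 0.02 for the respiratory chain and 0.08 for cholesterol and fatty acids, so these directions depended on that setting. Neither the 17 genes of Myc targets and ribosome making (median 0.02, 1 unadjusted) nor the 18 of hypoxia and glycolysis (median -0.11, 3 unadjusted) held a called gene by either test.

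Luminal and secretory genes held no call by limma, where 4.74% of all tested genes were higher and 0.583% lower. In 14 genes of luminal and hormone-sensing cells 5 had an unadjusted p under 0.05, the median was -0.08 log2 and 0 were called by either test. The oestrogen receptor partner Foxa1 had means of 4.73 ± 0.26 and 4.50 ± 0.15 log2 (SD, n = 15 matrix-rich and 15 matrix-poor tumours, adjusted p = 0.0744). In 15 milk genes 0 had an unadjusted p under 0.05 (median -0.07, 0 called by either test). In 11 genes of gland secretion 3 did and the rank-sum test called 1 higher, and single differences ran from -1.97 for the secretoglobin Scgb1b27 (interval -3.57 to -0.36) to 1.84 for apolipoprotein D, Apod (interval 0.62 to 3.06), with adjusted p of 0.174 and 0.0711. These genes span several log2 units inside each group.

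**Figure D3:**
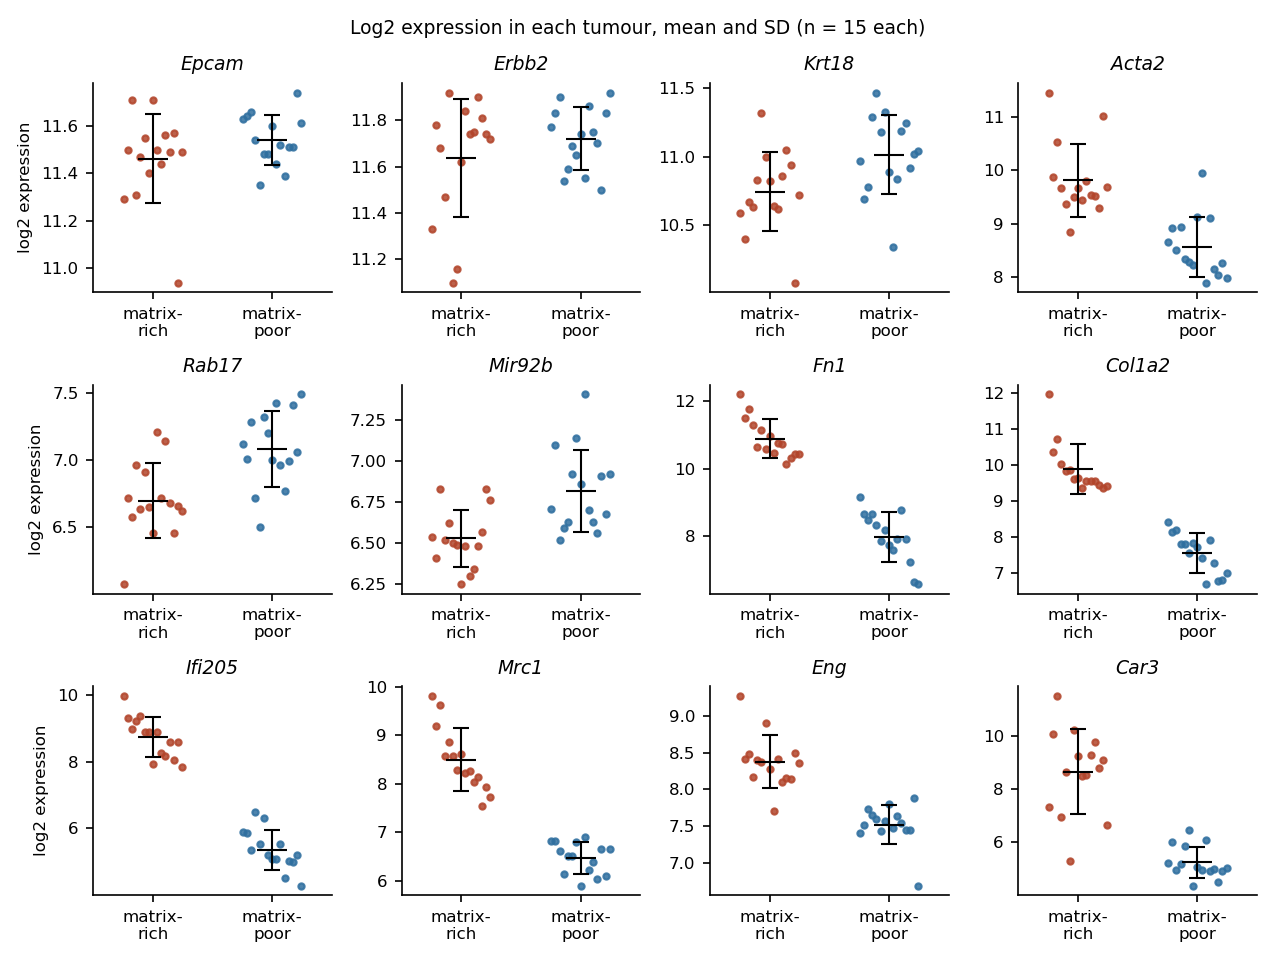
Log2 expression (vertical axes, each with its own range) of 12 genes in the 15 matrix-rich tumours, left, and the 15 matrix-poor tumours, right, in order of score within a group, with the mean and SD in black. Epcam and Erbb2 overlap apart from 3 and 4 low matrix-rich tumours, Rab17 and Mir92b overlap with lower matrix-rich means, and Fn1, Col1a2, Ifi205 and Mrc1 do not overlap.

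Of the 10 genes with the largest higher difference, Car3, Ifi205, C1qtnf3 and Fabp4 are not matrix genes, and Fn1, osteoglycin (Ogn), lysyl oxidase (Lox), Cilp, Mfap5 and Abi3bp are matrix proteins or their enzymes. Matrix genes chose the groups, so the matrix genes here are not independent evidence. Lox ranged from 7.76 to 11.33 log2 with a median of 8.52 in matrix-rich tumours, and from 5.13 to 7.23 with a median of 6.23 in matrix-poor tumours, and was higher by 6.49-fold (adjusted p = 4.70e-08 by limma). Ogn, a small leucine-rich proteoglycan, was higher by 6.93-fold and Mfap5, a protein of elastic microfibrils, by 5.94-fold, with no overlap of the groups. Ifi205, of the interferon-inducible p200 family, ranged from 7.83 to 9.98 log2 in matrix-rich tumours and from 4.29 to 6.49 in matrix-poor tumours, and was higher by 10.4-fold. The secreted protein gene C1qtnf3 was higher by 6.49-fold. All 10 kept their call under all 19 alternative settings.

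Of 14 tested fibrillar and related collagens 11 were higher and 0 lower (median 1.09 log2), beside 4.74% higher and 0.583% lower over all tested genes. Col1a2, whose chain joins that of Col1a1 in type I collagen, ranged from 9.35 to 11.97 log2 with a median of 9.62 in matrix-rich tumours, and from 6.70 to 8.41 with a median of 7.74 in matrix-poor tumours. It was higher by 5.01-fold (adjusted p = 8.97e-09) and the groups did not overlap. Col12a1, which sits on type I fibrils, was higher by 4.88-fold and Col8a1, a network-forming collagen, by 4.15-fold. Basement membrane genes were higher in 9 of 15 members and lower in 0 (median 0.44). There nidogen 1 (Nid1), which links laminin to type IV collagen, was higher by 2.43-fold, perlecan (Hspg2) by 1.80-fold and the laminin chain Lama2 by 1.82-fold.

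The promoters of Col1a2 and Nid1, the collagen and the basement membrane gene with the largest moderated statistic of their lists, are shown because the data turn on these lists, covering the 250 bases before the start of the gene, from RefSeq on GRCm38.p6, in the direction of the gene. Capitals mark CCAAT or its reverse complement ATTGG, the letters that the factor NF-Y is known to bind.
Col1a2, chr6:4505368-4505617, plus strand: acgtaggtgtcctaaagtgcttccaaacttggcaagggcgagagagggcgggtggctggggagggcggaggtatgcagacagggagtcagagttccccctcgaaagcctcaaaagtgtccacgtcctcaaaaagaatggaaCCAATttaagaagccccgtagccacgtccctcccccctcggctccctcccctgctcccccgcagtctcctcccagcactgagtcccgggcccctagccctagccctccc
Nid1, chr13:13437352-13437601, plus strand: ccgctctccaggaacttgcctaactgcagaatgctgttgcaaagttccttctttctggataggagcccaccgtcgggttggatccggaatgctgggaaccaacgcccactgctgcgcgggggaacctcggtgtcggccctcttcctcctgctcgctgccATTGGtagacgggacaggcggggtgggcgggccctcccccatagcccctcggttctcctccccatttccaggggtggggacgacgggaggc
The Col1a2 window holds 1 match, whose first base lies 109 bases before the start of the gene, and the Nid1 window holds 1, at 91 bases. Either form was present in 37.5% of all 27025 genes with a window of this length and in 33.4% of the 587 higher genes with one. It was in 2 of 8 called collagens and 5 of 7 called basement membrane genes that had an entry. A match is a description of the letters only.

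Of 32 tested proteoglycans and glycoproteins 23 were higher and 0 lower (median 0.96 log2), and of 29 matrix enzymes and inhibitors 19 and 0 (median 0.97). Mmp2, a gelatinase, was higher by 4.65-fold and ranged from 8.32 to 10.44 log2 in matrix-rich tumours and from 5.97 to 8.47 in matrix-poor tumours. The lysyl oxidase Loxl1 was higher by 3.57-fold (adjusted p = 1.17e-09) with no overlap. Fibroblast genes were higher in 21 of 29 members and lower in 0 (median 0.82), with no overlap in 9. Over all tested genes 4.74% were higher, and in 0.535% every matrix-rich value lay above every matrix-poor one. Pi16, a marker of adventitial fibroblasts, was higher by 2.68-fold, Islr by 2.23-fold and Serpinf1, the secreted serpin PEDF, by 1.87-fold.

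Vessel genes moved with the matrix. Of 21 endothelial genes 17 were higher and 0 lower, beside 4.74% higher over all tested genes, with a median of 0.50 log2. Endoglin (Eng), a co-receptor for TGF-beta family ligands on endothelium, ranged from 7.71 to 9.28 log2 with a median of 8.37 in matrix-rich tumours, and from 6.69 to 7.88 with a median of 7.54 in matrix-poor tumours, and was higher by 1.81-fold (adjusted p = 2.30e-06 by limma). The phosphatase Ptprb was higher by 1.71-fold and the angiopoietin receptor Tek by 1.69-fold. The pericyte adhesion molecule Mcam was higher by 0.58 log2. Among 6 lymphatic genes Lyve1 and Pdpn were higher, by 1.85-fold and 1.98-fold. Lyve1 is also made by some macrophages and Pdpn by fibroblasts. The macrophage level differed between the groups too, so a fit with it as a covariate removes part of the contrast for any gene. With the macrophage level as a covariate, 3 of the 21 endothelial genes were called, 10 of the 29 fibroblast genes, 8 of the 29 matrix enzymes, 14 of the 32 proteoglycans and glycoproteins, 7 of the 14 collagens and 1 of the 6 lymphatic genes.

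Macrophage genes were higher in 14 of 20 members and lower in 0, beside 4.74% higher over all tested genes, with a median of 0.68 log2. The mannose receptor Mrc1, a marker of tissue-resident macrophages, ranged from 7.54 to 9.82 log2 with a median of 8.28 in matrix-rich tumours, and from 5.90 to 6.91 with a median of 6.51 in matrix-poor tumours. The groups did not overlap and the difference was 4.07-fold (adjusted p = 3.32e-09). Folr2, a folate receptor of resident macrophages, was higher by 2.44-fold and Csf1r, their growth factor receptor, by 1.77-fold. The mean level of the list ranged from 7.26 to 9.12 log2 in matrix-rich tumours, highest in mid9, and from 6.77 to 7.60 in matrix-poor tumours. With the pan-epithelial level as a covariate 7 of the 20 were called.

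In the other immune lists 6 genes were higher, while over all tested genes 4.74% were. In the list of dendritic cell and MHC class II genes 4 of 13 were higher and 0 lower (median 0.08), led by H2-Ab1 at 2.34-fold and H2-Aa at 1.93-fold, which macrophages and B cells also make. With the macrophage level as a covariate 0 of the 13 were called, and 2 with the pan-epithelial level, with 10 tumours a group or with the score of Col1a1 and Col3a1 alone. Among 17 T and NK cell genes 1 was higher, a share near that of all tested genes, and the median was 0.06 log2. It was Thy1 at 1.77-fold, which mouse fibroblasts also make. In 7 neutrophil and mast cell genes the mast cell protease Cpa3 was higher by 2.45-fold, with values from 3.84 to 7.45 log2 in matrix-rich tumours and from 3.73 to 4.39 in matrix-poor tumours. Its mean was 5.25 log2 in matrix-rich tumours, 4.28 in those between and 3.96 in matrix-poor tumours. Cpa3 therefore passed the filter of 4.38 log2 only through the group where it is high. The mast cell genes Mcpt4, Cma1, Ms4a2 and Fcer1a of the list lay below the filter and were not tested. The macrophage covariate left 0 calls among the T and NK cell genes and, like the pan-epithelial one, 0 among the neutrophil and mast cell genes. In 19 interferon response genes 0 were called by limma or the rank-sum test and 0 had an unadjusted p under 0.05, with a median of 0.04. Their mean level ranged from 5.63 to 8.31 log2 in matrix-rich tumours and from 5.59 to 8.24 in matrix-poor tumours. The same counts held for 10 genes of MHC class I (median 0.06), and 0 of 8 B and plasma cell genes were called by either test, with 2 at an unadjusted p under 0.05 (median 0.02).

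Of the lists that mark tissue around the tumour, the adipocyte one held 6 calls and the skeletal muscle, skin and nerve ones 1 in all. Of 14 adipocyte genes 6 were higher and 0 lower (median 0.36), beside 4.74% higher over all tested genes. Car3, a carbonic anhydrase abundant in fat and muscle, ranged from 5.28 to 11.51 log2 with a median of 8.80 in matrix-rich tumours, and from 4.37 to 6.46 with a median of 5.02 in matrix-poor tumours, and at 10.7-fold was the tested gene with the largest mean difference (adjusted p = 9.36e-07). The fatty acid carrier Fabp4, also made by capillary endothelium and macrophages, was higher by 5.38-fold and lipoprotein lipase (Lpl) by 2.12-fold. In 3 of the 14 the difference was below 0, down to -0.43 log2. Adipoq of the list lay below the filter, and Cfd and Acsl1 had no probe set of their own gene. The mean level of the adipocyte list ranged from 6.21 to 7.32 log2, highest in mid114, in matrix-rich tumours, and from 5.74 to 6.28 in matrix-poor tumours. Of 13 skeletal muscle genes 0 were called by limma, 1 by the rank-sum test, and 2 had an unadjusted p under 0.05 (median 0.41). Their mean level in mid71 was 9.72 log2, against a median of 5.62 over the matrix-rich tumours and 5.61 over the matrix-poor tumours. Without mid71 the median was 0.14 and 1 gene was higher. Of 10 skin genes 0 were called by either test, with 1 at an unadjusted p under 0.05 (median -0.03). Of 8 Schwann cell and nerve genes Foxd3 was lower, by 1.09-fold, a call that 10 of the 19 alternatives did not make. The part of fat and muscle in the other differences was not tested.

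Called genes were a minority of each signalling list, though more frequent than among all tested genes. Counting each gene once, 19 of 96 were higher and 1 lower, beside 4.74% higher and 0.583% lower over all tested genes. Of 26 genes of TGF-beta and BMP signalling 7 were higher and 0 lower (median 0.18 log2). The matricellular protein Ccn2, a known target of TGF-beta, ranged from 7.57 to 10.05 log2 with a median of 8.44 in matrix-rich tumours, and from 6.39 to 8.69 with a median of 7.05 in matrix-poor tumours, and was higher by 2.57-fold (adjusted p = 0.000141). Tgfbi, another target, was higher by 2.32-fold and Lrrc32, which holds latent TGF-beta at the cell surface, by 1.87-fold. The ligand Tgfb1 differed by 0.27 log2 (adjusted p = 0.417) and was not called. Of 21 genes of PDGF, FGF and IGF signalling 5 were higher and 0 lower (median 0.23), led by the fibroblast receptors Pdgfra at 3.11-fold and Pdgfrb at 1.80-fold and by the growth factor Igf1 at 2.47-fold.

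Of 24 Wnt and hedgehog genes 4 were higher and 1 lower (median 0.04), with the secreted Wnt modulators Sfrp2 at 3.05-fold, Dkk3 at 1.43-fold and Sfrp4 at 1.41-fold higher, and the ligand Wnt6 lower by 1.16-fold. With the macrophage level as a covariate 0 of the 26 TGF-beta and BMP genes, 1 of the 21 growth factor genes and 1 of the 24 Wnt and hedgehog genes were called. Of 25 integrins and genes of force sensing 3 were higher and 0 lower (median 0.11). They were the collagen-binding integrin subunit Itga11 at 1.92-fold, the fibronectin-binding subunit Itga5 at 1.90-fold and the collagen receptor kinase Ddr2 at 2.10-fold. The macrophage covariate left 0 of the 25 called and the pan-epithelial covariate 1. Counting each gene once within a class, 7 of 105 tested genes of epithelial lists were higher and 0 lower, and 9 and 1 of 117 of tumour-cell lists. The counts were 114 and 1 of 203 in stromal, 20 and 0 of 94 in immune and 19 and 1 of 96 in signalling lists. The epithelial and tumour-cell shares lay nearest to the 4.74% of all tested genes that were higher. All 9 higher tumour-cell genes were in the mesenchymal list, and 4 of the 7 epithelial ones were also in the pericyte list.

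**Figure D4:**
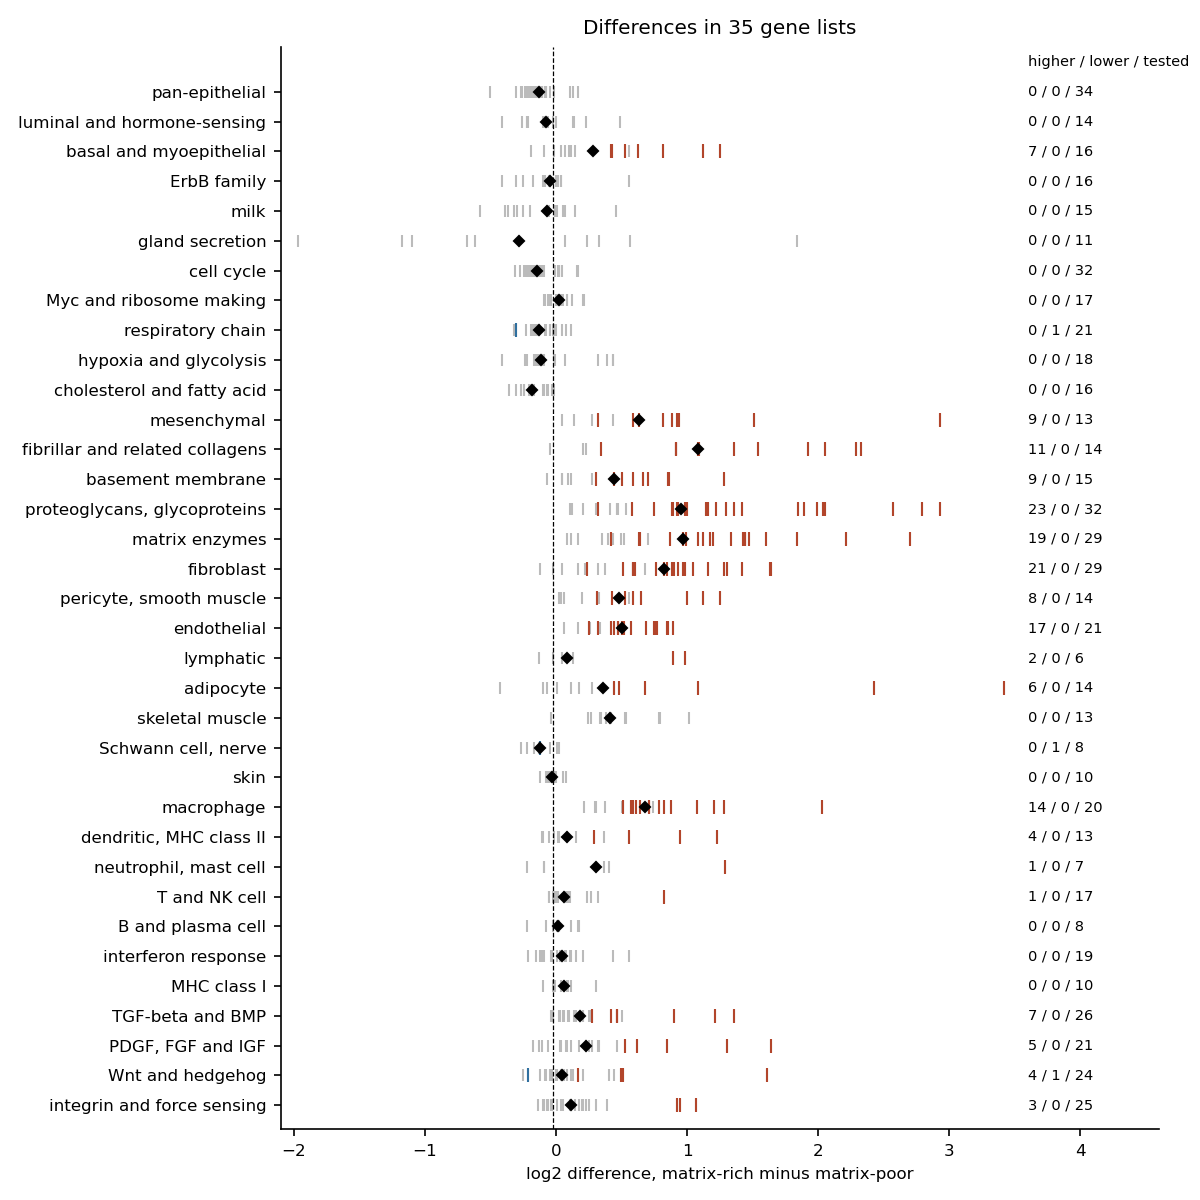
Log2 difference, matrix-rich minus matrix-poor tumours (horizontal axis), of every tested member of 35 gene lists as ticks, red where higher, blue where lower and grey where not called, with the list median as a diamond. The dashed line is the median over all tested genes, -0.02. Medians of the epithelial and tumour-cell lists lie between -0.29 and 0.02 apart from the basal (0.28) and mesenchymal (0.63) ones, and those of the matrix, fibroblast, endothelial and macrophage lists lie between 0.44 and 1.09.

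Within the matrix-rich group the lists did not move alike from tumour to tumour. In mid9 the fibroblast, macrophage, endothelial and pericyte scores were the highest of the group and the pan-epithelial score, at -1.57 SD units, the lowest, followed by mid71 at -1.24. The highest adipocyte score was in mid114, the highest skeletal muscle score, 5.71, in mid71, and the highest T and NK cell score, 1.84, in mid147. In matrix-poor tumours the pan-epithelial score ranged from -0.40 to 0.66. Fibroblast scores were between 0.25 and 2.43 in matrix-rich tumours and at most -0.45 in matrix-poor tumours, without overlap, while cell cycle scores were between -1.95 and 0.74 in matrix-rich and between -1.93 and 1.88 in matrix-poor tumours.

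**Figure D5:**
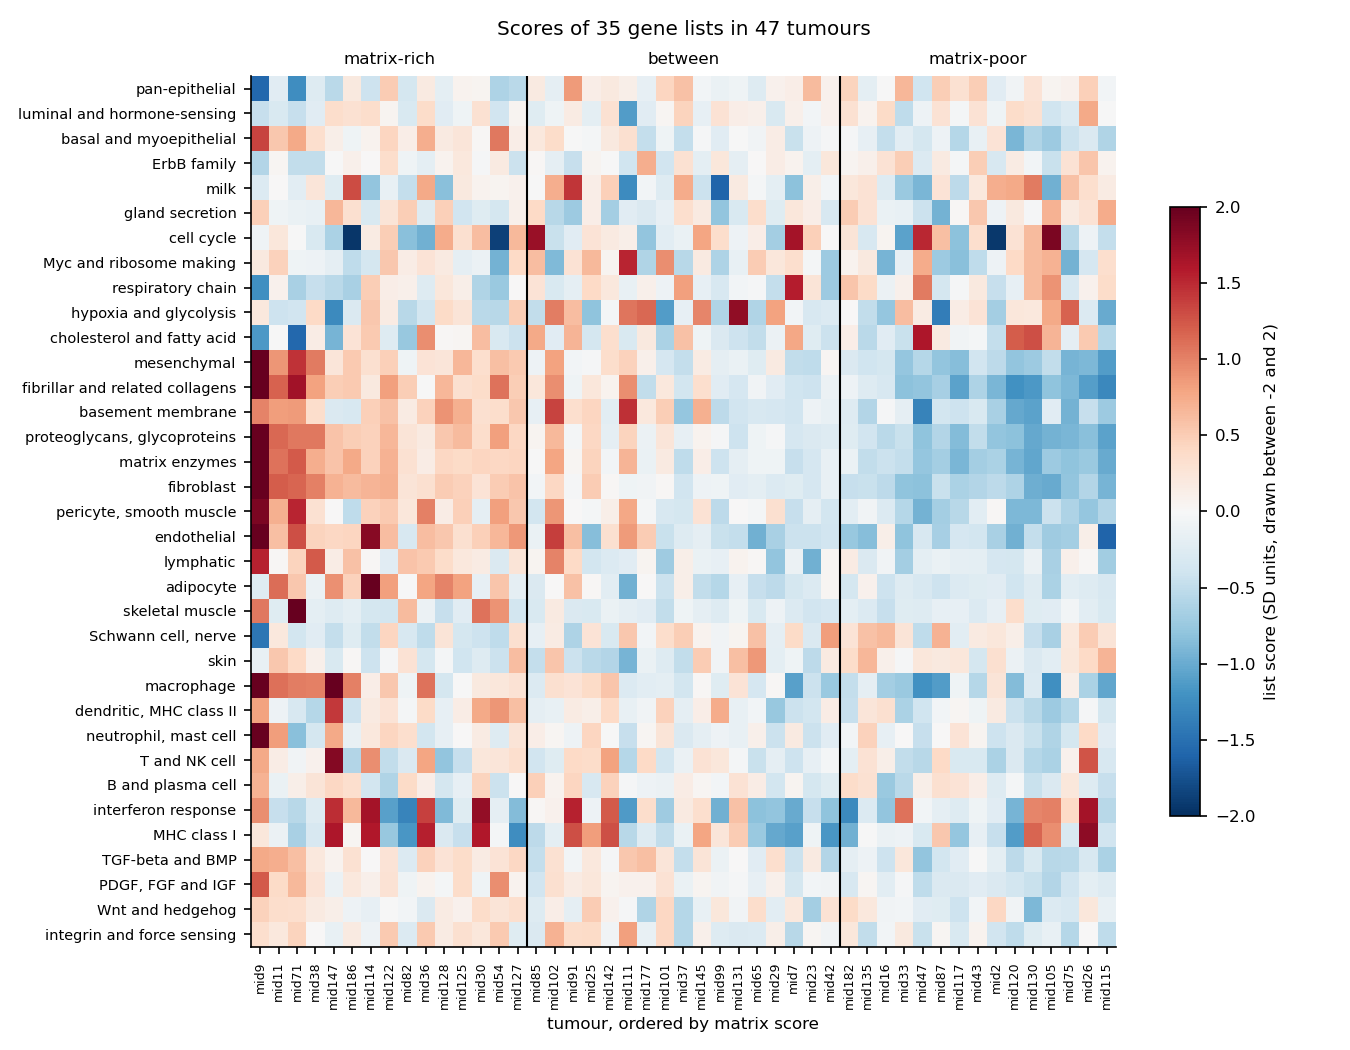
Score of each of 35 gene lists (rows, mean of the standardised members in SD units, colours limited to -2 and 2) in the 47 tumours (columns) ordered by matrix score, matrix-rich left and matrix-poor right of the tumours between. The fibroblast, matrix and endothelial rows run broadly from red to blue along the order, and the cell cycle, interferon and milk rows do not. Single tumours break the order, as matrix-rich mid82 at -0.32 and matrix-poor mid26 at 0.12 do in the endothelial row.

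The array values limit these comparisons in common ways. Averaged over all other arrays, the correlation of an array ran from 0.967 in mid9 to 0.980 in matrix-rich tumours and from 0.974 to 0.981 in matrix-poor tumours. The 3 arrays left out would have had scores of 1.62 (mid60), 1.92 (mid79) and 2.52 (mid100), all in the matrix-rich group if 50 were ranked. Their list levels stood apart, with a skin score of 27.2 in mid60, an adipocyte score of 10.9 and a pan-epithelial score of -9.37 in mid79, and a skeletal muscle score of 6.68 in mid100.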

How the data were processed

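The authors deposited log2 expression values, and RMA (background correction, quantile normalization and a summary over probes) is the method that the submitters' processing notes list. These notes list the build mm8 too, with no purpose, and no version of RMA. RNA labelling started from 6 ug of total RNA, per the labels. Quantile normalization makes arrays alike in distribution, so a shift common to most genes is removed, and dim values are compressed, so folds of dim genes are understated.

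The platform annotation gives 1 gene to 23521 of 34472 probe sets, several to 1814 and none to 9137. Only the first kind was used. Symbols were updated through Entrez identifiers (23328 matched, 193 did not). For each of 22180 genes the probe set with the highest mean over 47 tumours was taken. The 16629 genes with a mean of at least 4.38 log2, the 25th percentile, were tested, without the 6 score genes.

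Matrix-rich and matrix-poor tumours (15 each) were compared with limma 3.58.1 (lmFit and eBayes with trend and robust settings), two-sided, with Benjamini-Hochberg adjustment over all tested genes and calls at an adjusted p under 0.05. A fold is 2 to the power of the log2 difference, and intervals are at 95%. The number of arrays limits the precision, and p-values set the group difference against the spread between tumours within the groups. The groups are the ends of a score from the same arrays. Genes that vary with the 6 score genes therefore have small p-values by that choice. No batch is labelled. List scores are means of members standardised over the 47 tumours. Lists are described by counts and medians only. There were 35 lists with 592 tested genes. The 6 genes, the rule for the groups and the lists were chosen with earlier results of these data known. Named genes are the 6 score genes, the 10 called genes with the largest difference each way, in each list the 3 called members with the largest moderated statistic, and members of the pan-epithelial, ErbB and basal lists. Other genes named, among them those given as not called in other lists, were chosen after their values were seen.

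Alternatives numbered 19: filters, probe set rules, another quantile normalization, array weights, a Wilcoxon rank-sum test, other group sizes, the score as a continuous term, all 50 tumours, without mid71, scores with or without the collagens, and covariates for pan-epithelial genes, muscle genes and array correlation. The runs without mid9 and with a macrophage covariate were chosen after seeing the data. The limma step was tested on simulated data. Python 3.11.15, numpy 2.4.6, pandas 2.3.3, scipy 1.17.1, matplotlib 3.10.9 and R 4.3.3 were used. Promoter and microRNA sequences came from RefSeq tables on GRCm38.p6.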

Additional observations from a re-analysis of the deposited data

How the results depend on the processing

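The count of 788 higher genes stayed within 1.5 times of its value under 17 of 19 alternatives and the count of 97 lower genes under 12. The exceptions among higher genes were 368 with the pan-epithelial level as a covariate, 361 of them among the 788, and 127 with the macrophage level, 118 of them among the 788. Genes of the covariate's own list were part of those fits but left out of the counts. The lower genes numbered 33 with a filter at the 50th percentile, where 11085 genes were tested, 51 with 10 tumours a group, 165 with 23 a group, 262 with the score as a continuous term over 47 tumours, 207 with all 50 tumours ranked, 50 with the pan-epithelial covariate and 5 with the macrophage covariate. Of these, 48 of the 165, 75 of the 262 and 66 of the 207 were among the 97. The cause was not tested. Leaving Col1a1 and Col3a1 out of the score gave the same 15 and 15 tumours.

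None of the differences of the 20 leading genes changed sign. List medians kept their sign in 20 of 35 lists. In the other 15, with main medians between -0.29 and 0.30 log2, the sign changed in at least 1 setting. With the macrophage covariate the medians were 0.13 for cell cycle, 0.02 for the respiratory chain, 0.03 for hypoxia and glycolysis, 0.08 for cholesterol and fatty acids and -0.34 for interferon genes, and with 23 tumours a group the milk median was 0.11. Pan-epithelial genes called lower numbered 1 with quantile normalization run again, 3 with the continuous score and 1 with array correlation as a covariate. They numbered 0 in the other settings that counted these genes, and list medians lay between -0.33 and -0.04 log2. The 10 genes with the largest higher difference kept their call in 19 of 19. Among the 10 lower ones AI463170, Ndufb8 and Mir92b lost it in 1, and Mien1 and Phlda1 in 8. Dim signal limits the lower genes, whose median level was 5.28 log2, beside 6.70 over all tested genes.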
